A study of Rattus norvegicus with 4 samples.

Results

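Transcripts of 7 genes that encode target antigens of membranous nephropathy, or a partner of one, were examined in glomeruli of rats given Adriamycin. The genes were chosen by name as known antigens, and all 7 were found among the 13261 genes used. They are Lrp2, Lrpap1, Pla2r1, Thsd7a, Mme, Htra1 and Sema3b. The 4 samples form 1 group, from male Wistar rats that received Adriamycin (ADR) into a vein; this drug, also called doxorubicin, injures podocytes in rodents. Wistar is an outbred stock, and the labels give a body weight of about 150 to 175 g and no age. Glomeruli were sieved from the kidneys on day 11 or 21, without a statement of which day applied to which rat, and poly(A) RNA was sequenced. Rats that received puromycin aminonucleoside, pioglitazone, GQ-16 or vehicle belong to the wider study and were not analysed here, so no comparison with untreated glomeruli was made. The labels do not say whether a sample is a single rat or a pool, and samples are called animals in what follows.

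Membranous nephropathy is a glomerular disease in which antibodies bind an antigen at the base of the podocyte and immune deposits form beneath it. Its experimental counterpart in the rat, Heymann nephritis, is raised with brush border of the proximal tubule, and its antigen is megalin, the product of Lrp2, an endocytic receptor of tubular brush border that rat podocytes also carry. Lrpap1 encodes the receptor-associated protein (RAP), a chaperone that escorts megalin and its relatives through the endoplasmic reticulum. PLA2R1, a C-type lectin receptor, and THSD7A, a membrane protein with thrombospondin repeats, are podocyte antigens of human disease. Neprilysin, encoded by Mme, is a membrane peptidase of podocytes and tubular brush border. HTRA1 is a secreted serine protease, and semaphorin 3B, encoded by Sema3b, is a secreted guidance protein.

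The 250 bases before the RefSeq start of 4 members are shown because these genes form the receptor and chaperone pair (Lrp2 and Lrpap1), a human podocyte antigen (Thsd7a) and the main human antigen (Pla2r1). Sequences are from RefSeq in build GRCr8, matched by symbol for 6 of the 7 members, whereas the submitters' processing notes name Rnor_6.0. Capitals mark the GC box, GGGCGG on either strand. Each sequence reads 5′ to 3′ in the direction of the gene.
Lrp2, chr3:74754536-74754785, minus strand: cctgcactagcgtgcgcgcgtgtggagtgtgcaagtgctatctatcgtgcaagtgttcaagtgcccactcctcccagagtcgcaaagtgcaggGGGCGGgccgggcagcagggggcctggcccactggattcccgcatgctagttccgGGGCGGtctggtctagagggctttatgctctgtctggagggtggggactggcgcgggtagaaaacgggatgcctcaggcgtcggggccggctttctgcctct
Lrpap1, chr14:79875752-79876001, plus strand: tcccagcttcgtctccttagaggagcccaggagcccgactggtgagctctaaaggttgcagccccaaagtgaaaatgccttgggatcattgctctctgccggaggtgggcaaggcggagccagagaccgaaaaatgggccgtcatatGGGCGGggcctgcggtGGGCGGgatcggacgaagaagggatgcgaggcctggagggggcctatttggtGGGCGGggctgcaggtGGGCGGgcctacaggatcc
Thsd7a, chr4:41865525-41865774, minus strand: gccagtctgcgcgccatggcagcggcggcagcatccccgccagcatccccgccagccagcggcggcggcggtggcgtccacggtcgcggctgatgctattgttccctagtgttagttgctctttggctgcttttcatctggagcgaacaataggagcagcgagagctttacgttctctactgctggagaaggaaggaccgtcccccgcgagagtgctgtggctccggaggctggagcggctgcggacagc
Pla2r1, chr3:65422336-65422585, minus strand: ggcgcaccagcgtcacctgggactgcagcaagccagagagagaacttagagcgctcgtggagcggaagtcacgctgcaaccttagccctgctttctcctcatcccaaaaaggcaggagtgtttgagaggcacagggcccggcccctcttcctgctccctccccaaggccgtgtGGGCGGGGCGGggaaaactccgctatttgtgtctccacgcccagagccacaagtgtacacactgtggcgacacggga
The GC box occurred 2 times before Lrp2, 4 times before Lrpap1, 2 times before Pla2r1, where the copies overlap, and 0 times before Thsd7a. It was present in 30.5% of 33469 RefSeq windows of the same length. GC content was 64.4% for Lrp2, 63.6% for Lrpap1, 64.8% for Thsd7a and 62% for Pla2r1, against a median of 51.2% over all windows. The letters TATAAA and GTTAAT (part of the site of HNF1, a tubular transcription factor), searched on either strand, were in none of the 6 matched windows and in 12.9% and 6.45% of all windows. GTGGGNG, a core shared by the podocyte factor WT1 and the EGR factors, occurred 3 times before Lrpap1 and 1 time each before Pla2r1 and Mme, in each case overlapping a GC box. It was in 25.6% of all windows. These matches describe the letters only and do not show binding.

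The 4 libraries held 13566962 to 16207027 reads in the genes used. Values are in CPM, reads scaled to the same total in each library, which are not corrected for transcript length, so levels of different genes are not ranked against each other. The glomerular label was checked on markers. The podocyte gene Nphs1 (nephrin) stood at 1385 ± 347 CPM (SD, n = 4), and all 17 podocyte markers were in the table. All 14 proximal tubule markers were present too, with a summed level of 4185 to 7897 CPM, and the podocyte markers summed to 8603 to 15427 CPM. The podocyte sum was lowest in replicate 2, which also had the highest share of reads from the 13 mitochondrial protein genes, at 12.5% against 7.46% to 9.34% in the others. The tubule sum was lowest in replicate 3. In such bulk samples, fewer cells of a type and less RNA per cell cannot be told apart.

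Lrp2 (ENSRNOG00000056184) was uneven between animals. It stood at 1923, 1127, 751 and 1248 CPM in replicates 1 to 4, a mean of 1262 ± 489 CPM (SD, n = 4). Replicate 1 was high and replicate 3 low, the highest value was 2.56 times the lowest, and the 95% Poisson intervals of the 4 animals, which cover counting error only, did not overlap. Lrpap1 (ENSRNOG00000009313), the gene of the megalin chaperone, stood at 531, 324, 310 and 425 CPM, with a mean of 397 ± 103 CPM. Its order of animals was that of Lrp2, with a smaller ratio of 1.71 between the ends, and the intervals of replicates 2 and 3 overlapped. The log2 CPM of Lrp2 minus that of Lrpap1 was 1.86, 1.80, 1.27 and 1.55 in replicates 1 to 4, so the ratio of the receptor's CPM to that of its chaperone was lowest in replicate 3. The SD of this difference was 0.27, against 0.56 for the log2 level of Lrp2 alone. It was 0.16 without replicate 3 and 0.32 without replicate 4.

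Other genes of megalin's endocytic machinery gave a second view of Lrp2. Cubn encodes cubilin, the co-receptor of megalin, Amn encodes amnionless, which brings cubilin to the membrane, and Dab2 encodes an adaptor that binds megalin's tail. Cubn stood at 8.08, 7.89, 6.75 and 7.71 log2 CPM in replicates 1 to 4. Amn stood at 7.01, 6.54, 6.02 and 6.95 log2 CPM, and Dab2 at 8.19, 7.83, 7.37 and 7.71. All 3 were lowest in replicate 3 and highest in replicate 1, as was Lrp2. The SD of the log2 difference between Lrp2 and its partner was 0.27 for Cubn, 0.23 for Amn and 0.25 for Dab2. With an animal left out, it ran from 0.14 (without replicate 2) to 0.33 (without replicate 4) for Cubn. For Amn it ran from 0.13 (without replicate 1) to 0.28 (without replicate 2), and for Dab2 from 0.20 to 0.28.

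The 3 membrane antigens of the podocyte surface differed in spread. Thsd7a (ENSRNOG00000030151) stood at 140, 58.9, 78.0 and 102 CPM in replicates 1 to 4, a mean of 94.7 ± 35.1 CPM (SD, n = 4). Replicate 1 was high and replicate 2 low, by a ratio of 2.38, and no intervals overlapped. Mme (ENSRNOG00000009514) stood at 48.5, 19.3, 22.5 and 39.8 CPM, with a mean of 32.5 ± 13.9 CPM. It had the order of Thsd7a, with replicates 1 and 4 above replicates 2 and 3 and overlapping intervals for the lower pair. Its log2 SD of 0.64 was the largest of the 7 members and exceeded that of 97.4% of all genes used.

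Pla2r1 (ENSRNOG00000008129), the gene of the main human antigen, had few reads. It had 128, 160, 193 and 169 reads in replicates 1 to 4, or 9.43, 9.87, 12.6 and 11.1 CPM, a mean of 10.7 ± 1.41 CPM (SD, n = 4). The value was highest in replicate 3 and lowest in replicate 1, and the intervals of all 4 animals overlapped. Overlap of intervals is not a test of difference. The chi-square test on reads, described below, gave a p of 0.041 before and 0.0582 after adjustment over all genes.

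The genes of the 2 secreted antigens varied less than Lrp2, Thsd7a and Mme. Htra1 (ENSRNOG00000020533) stood at 317, 348, 356 and 357 CPM in replicates 1 to 4, a mean of 344 ± 18.8 CPM (SD, n = 4). Replicate 1 was lowest and set apart from the other 3, whose neighbouring intervals overlapped and whose order changed with the scaling. Its log2 SD of 0.08 was below that of most genes, exceeding 12.0% of them, and without replicate 1 it was 0.02. Sema3b (ENSRNOG00000016512) stood at 167, 139, 135 and 179 CPM, a mean of 155 ± 21.5 CPM. Replicates 1 and 4 lay above replicates 2 and 3, and intervals overlapped within both pairs.

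**Figure D1:**
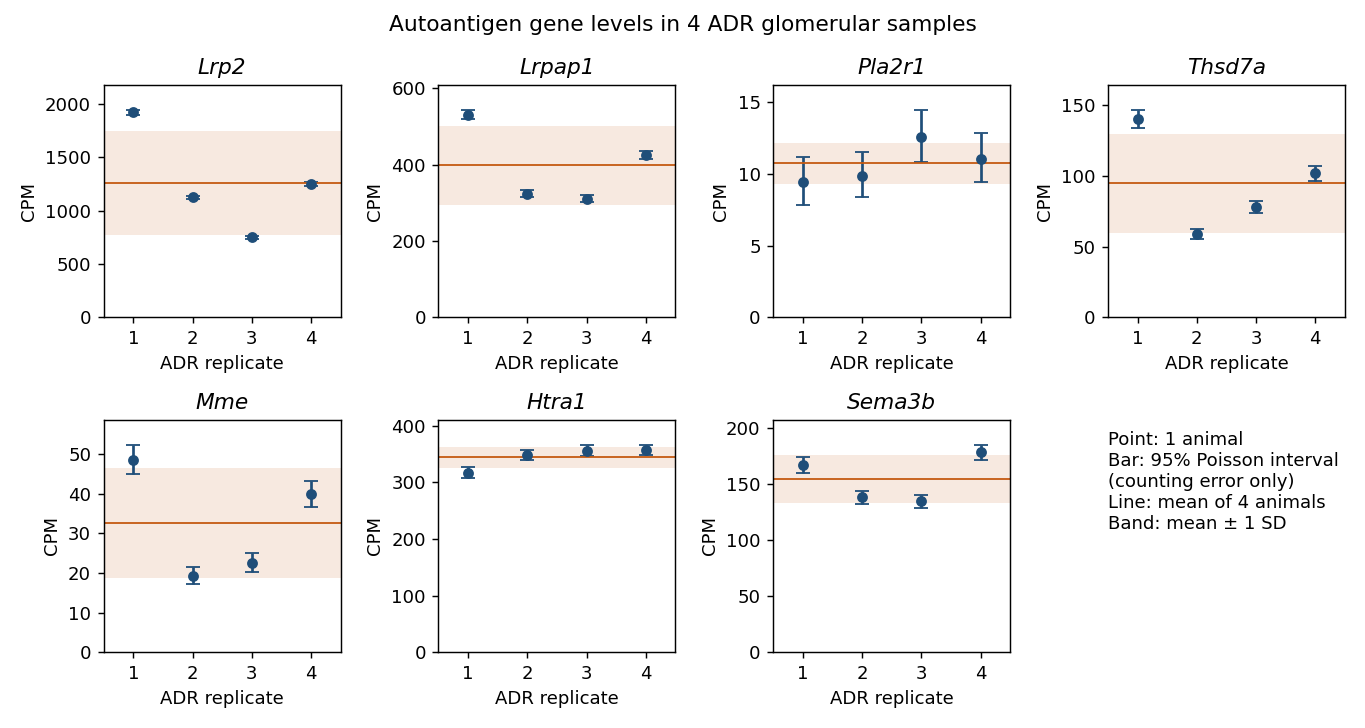
Level of each member in CPM (vertical axis from 0, a scale for each gene) in ADR replicates 1 to 4, with 95% Poisson intervals of counting error as bars, the mean as a line and 1 SD as a band. Lrp2, Lrpap1, Thsd7a and Mme are highest in replicate 1, and Pla2r1 and Htra1 are lowest there.

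Whether the animals differed by more than counting error was tested with a chi-square test of the whole reads, adjusted over all genes by Benjamini-Hochberg. At an adjusted p under 0.05, 6 of the 7 members passed, against 69.5% of all genes, so passing was common in the whole table. The statistic, on 3 degrees of freedom, was 8228 for Lrp2, 1161 for Lrpap1, 580 for Thsd7a, 270 for Mme, 137 for Sema3b and 43.1 for Htra1. It was 8.24 for Pla2r1, with an adjusted p of 0.0582 by the chi-square test on reads. The statistic grows with the number of reads, so it does not rank members by relative spread. Lrp2 had a mean of 18721.5 reads and a log2 SD of 0.56, and Mme had 481 reads and 0.64. Htra1 did not pass without replicate 1, with an adjusted p of 0.376 by the same test, and Pla2r1 passed without replicate 4, with 0.028.

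Next, the variance of each member was compared with that of genes of like abundance by limma's trend. At an adjusted p under 0.05, 0 of the 7 members were called, and 0% of all 13261 genes. The trend was fitted to these same genes, and the smallest adjusted p of any gene in limma's fit was 0.834. A count of 0 is therefore no sign that a member or a list was even. At an unadjusted p under 0.05, 2 of 7 passed, against 5.44% of all genes. These were Mme, whose variance was 14.9 times that of the trend, and Thsd7a, with 13.5 times, both with an adjusted p of 0.913 in limma's fit. The ratio was 6.25 for Lrp2, 4.72 for Lrpap1, 1.84 for Sema3b, 0.72 for Pla2r1 and 0.25 for Htra1. Mme and Thsd7a were thus the most uneven members for their level, and Htra1 was more even than the trend. Without replicate 2, Lrp2 also passed before adjustment, which made 3 of 7.

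The members were then set beside markers of podocytes and of the proximal tubule, none of which is a member. The mean log2 CPM of the 17 podocyte markers was 8.73, 7.57, 8.08 and 8.48 in replicates 1 to 4. Each of the 17, such as Magi2 (a scaffold protein), was highest in replicate 1 and lowest in replicate 2. The mean of the 14 proximal tubule markers was 8.59, 8.32, 7.65 and 8.26 log2 CPM, lowest in replicate 3. It includes Slc34a1, a phosphate transporter, and Slc5a12, a lactate transporter, both lowest in replicate 3. The 2 sets of markers thus parted most in replicates 2 and 3, where the podocyte mean minus the tubule mean was -0.75 and 0.44, against 0.14 and 0.22 in replicates 1 and 4.

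**Figure D2:**
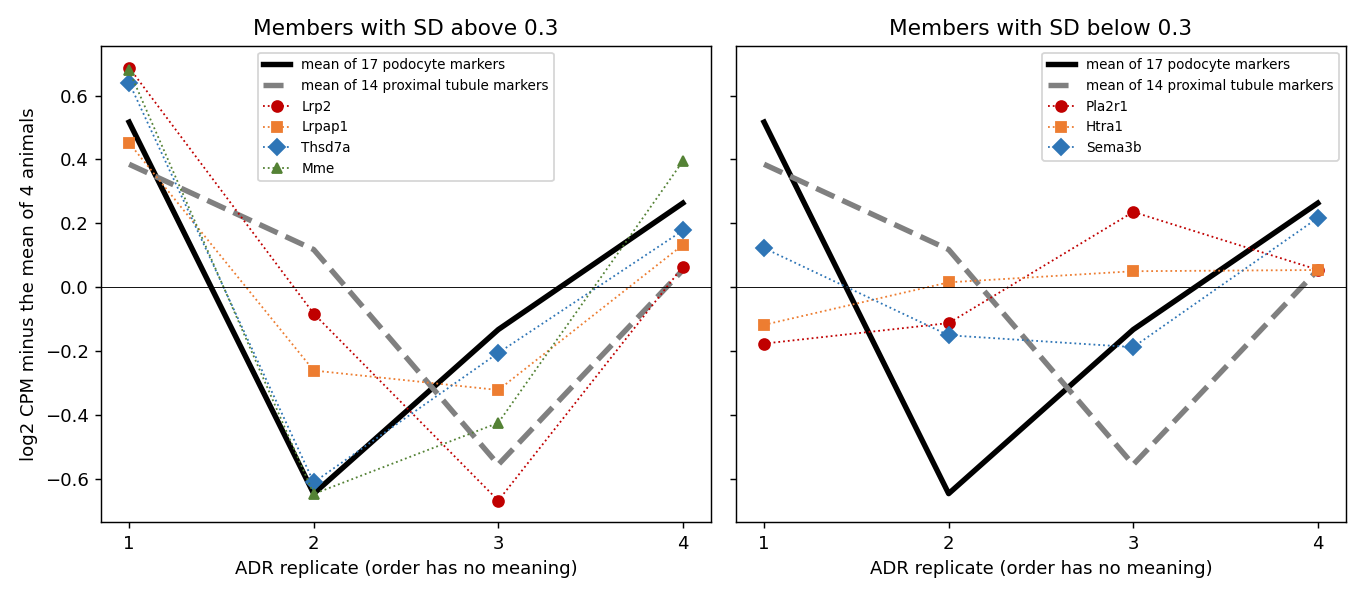
Log2 CPM minus the mean of 4 animals (vertical axis) for the members and for the means of 17 podocyte and 14 proximal tubule markers, by ADR replicate; lines join values of a gene and imply no order. Thsd7a and Mme lie near the podocyte line in replicate 2, Lrp2 lies near the tubule line in replicate 3, and Pla2r1, Htra1 and Sema3b stay within 0.24 of their mean.

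For each member, the SD over animals was taken of its log2 level minus each marker mean, as a description with no test. A small SD says that the gene kept a steady ratio to those markers. Thsd7a had an SD of 0.10 against the podocyte markers, 0.50 against the tubule markers and 0.53 for its level alone. With the median of the markers in place of their mean, the first of these was 0.33. Its difference from the podocyte mean was -1.60, -1.69, -1.80 and -1.81 in replicates 1 to 4. Mme had 0.21 against the podocyte mean and 0.52 against the tubule mean. With marker medians it had 0.22 against podocytes, and without replicate 3 its SD against the podocyte mean was 0.09, so which of the pair lay closer depended on these choices. Lrp2 showed the opposite, with 0.47 against the podocyte mean and 0.22 against the tubule mean. For Lrp2, the latter was 0.11 without replicate 1 and 0.27 without replicate 4. Its difference from the tubule mean was 2.32, 1.81, 1.90 and 2.03.

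Lrpap1 had an SD of 0.26 against either marker mean. These became 0.06 against podocytes and 0.09 against tubule without replicate 2, and 0.32 each without replicate 1. With marker medians they were 0.52 and 0.21. For Pla2r1, Htra1 and Sema3b, subtracting a marker mean gave a larger SD than the gene's own. The SD of Pla2r1 went from 0.18 to 0.56 and 0.58 against podocyte and tubule means, that of Htra1 from 0.08 to 0.55 and 0.46, and that of Sema3b from 0.20 to 0.37 and 0.32. Without replicate 3, the SD against the tubule mean was 0.28 for Pla2r1 and 0.27 for Htra1. With marker medians, the SD against podocytes was 0.89 for Pla2r1, 0.87 for Htra1 and 0.66 for Sema3b. Without replicate 2, the SD of Sema3b was 0.21 alone and 0.20 against the podocyte mean. The spread became smaller for 4 of 7 members with the podocyte mean, against 8.12% of all genes, and for the same 4 (Lrp2, Lrpap1, Thsd7a and Mme) with the tubule mean, against 9.43%.

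By the smaller of the 2 SDs, 4 of 7 members were nearer the podocyte markers, against 24.5% of all genes. They were Thsd7a, Mme, Lrpap1 and Pla2r1, the latter pair by narrow margins. Lrp2 was nearer the tubule markers with each animal left out in turn and with marker medians. Thsd7a and Mme depended on replicate 2. Without it, Thsd7a had 0.12 against the podocyte mean and 0.11 against the tubule mean, and Mme had 0.25 and 0.11. Htra1, with 0.41 and 0.56, and Sema3b, with 0.20 and 0.32, were then nearer the podocyte mean, so the count stayed at 4 with other members. Sema3b was nearer the podocyte mean without replicate 1 as well. The part of replicate 2's mitochondrial share in this was not tested. Without replicate 3, and likewise with marker medians, Lrpap1 and Pla2r1 were nearer the tubule markers. The count nearer the podocyte markers was then 2 of 7 members.

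**Figure D3:**
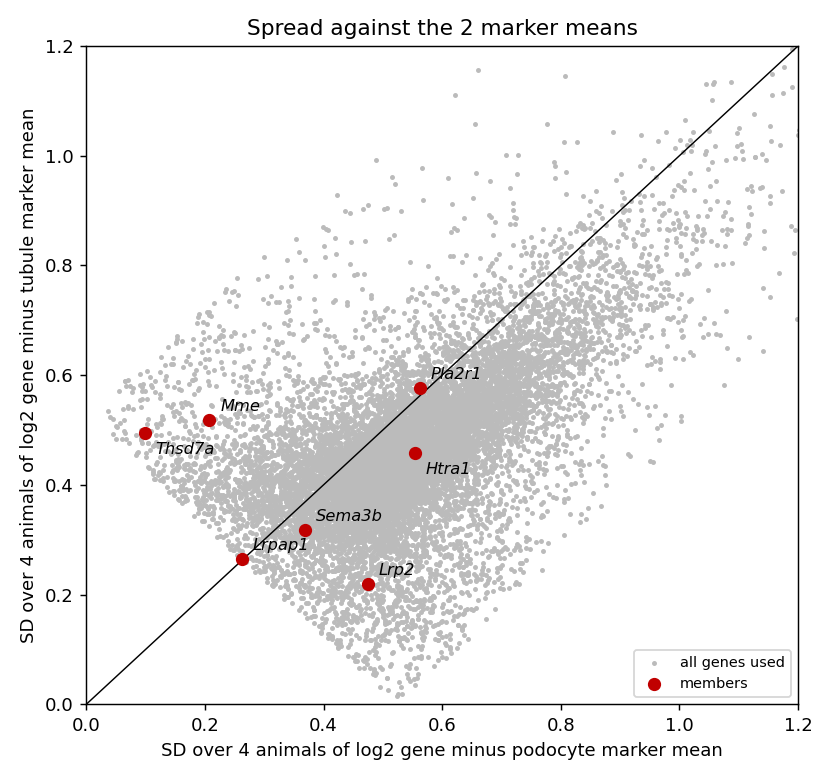
SD over 4 animals of the log2 level minus the podocyte marker mean (horizontal axis) and minus the tubule marker mean (vertical axis), for all genes used (grey) and the 7 members (red), with the line of equal SDs; 89 genes lie beyond the axes, which end at 1.2. Thsd7a and Mme lie far to the left of the line and Lrp2 far below it.

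Markers of other cell types were also present. The summed level of the 10 endothelial markers ran from 7194 CPM in replicate 1 to 9498 CPM in replicate 3, and that of the 9 mesangial and smooth muscle markers from 2076 to 2676 CPM. The 8 leukocyte markers summed to 1034 to 1322 CPM, the 8 distal nephron markers to 501 to 653 CPM and the 5 parietal epithelial markers to 405 to 557 CPM. Pecam1 (endothelial), Pvalb (distal nephron), Jchain and Mzb1 (leukocyte) were not analysed here. Replicate 1 was lowest for 7 of 10 endothelial, 7 of 8 leukocyte, 5 of 9 mesangial and smooth muscle, 5 of 8 distal nephron and 0 of 5 parietal epithelial markers, against 35.0% of all genes. In the same animal 4 of 7 members (Lrp2, Lrpap1, Thsd7a and Mme) were highest, against 27.7% of all genes highest there. The part of these cells in the members' values was not tested.

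The 21 pairs of members differed in how steady their ratio was. The SD of the log2 difference was smallest for Pla2r1 and Htra1, at 0.13, followed by Thsd7a and Mme, at 0.18. The genes of the first pair varied little on their own, with log2 SDs of 0.18 and 0.08. Those of the second had 0.53 and 0.64. The SD of the difference was largest for Pla2r1 and Mme and for Lrp2 and Pla2r1, both at 0.72. The order of the pairs depended on single animals. The SD for Pla2r1 and Htra1 was 0.06 without replicate 3 and 0.16 without replicate 4. That for Lrpap1 and Sema3b, 0.22 with all animals, was 0.025 without replicate 1 and 0.26 without replicate 4. That for Lrpap1 and Thsd7a, 0.24 with all animals, was 0.07 without replicate 2 and 0.29 without replicate 4. These values describe 4 animals and carry no test.

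Genes with the most similar course were found by the root mean square difference of mean-centred log2 values over the 4 animals, across the whole table. For Lrp2 they were Proz (0.03), a plasma protein gene, Cdhr2 (0.03), a cadherin of the brush border, and Kl (0.03), the tubular co-receptor klotho. Kl stood at 87.9, 50.9, 32.6 and 57.1 CPM in replicates 1 to 4. For Lrpap1 they were Snapc5, Jazf1 and Fut4, at distances of 0.02 each. For Thsd7a they were Fndc3b (0.02), Dach1 (0.03), a podocyte transcription factor in the marker list, and Slc19a2 (0.04), a thiamine transporter. For Mme they were Iqgap2 (0.04), a scaffold protein, Veph1 (0.06) and Arhgap28 (0.08). For Pla2r1 they were Ttc9c (0.01), Mettl7a (0.02) and Septin4 (0.02). For Htra1 and Sema3b, the nearest genes were Sun1, Cdc42se1 and Ckap4 for the former and Lamp2, Eif2ak2 and Plpp6 for the latter, at distances of 0.0048 to 0.0142. With 13261 genes and 4 values per gene, near matches were found for all 7 members. A similar course therefore does not show a shared cell type, which was not tested.

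Other reported antigens of membranous nephropathy were described from a list of 11 genes, 8 of which were used. By the chi-square test on reads, 7 of 8 varied beyond counting error, against 69.5% of all genes, and limma called 0 of 8. The median SD was 0.34, against 0.18 over all genes. Fat1, a giant cadherin of podocytes, stood at 625 ± 259 CPM (SD, n = 4), with 12301, 5643, 7238 and 11771 reads in replicates 1 to 4. It was low in replicates 2 and 3, as Thsd7a and Mme were, and its SD against the podocyte mean was 0.16. Pcsk6, a proprotein convertase, stood at 2.10 ± 0.52 CPM. By the smaller SD, 4 of 8 were nearer the podocyte markers, against 24.5% of all genes.

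Of the 11 genes listed for megalin's endocytic machinery, 10 were used and 7 varied beyond counting error, a share near the 69.5% of all genes, with a median SD of 0.25 and 0 called by limma. The share of these 10 nearer the podocyte markers was below the 24.5% of all genes. Myo6, a motor of endocytic vesicles, stood at 494 ± 54.5 CPM (SD, n = 4), and Clcn5, the endosomal chloride transporter mutated in Dent disease, at 10.6 ± 3.58 CPM. Among 9 LDL receptor relatives of megalin, also clients of RAP in part, 7 varied beyond counting error, against 69.5% of all genes, and all 9 were lowest in replicate 2, as were 31.5% of all genes. Lrp1 stood at 351 ± 67.1 CPM and Lrp8 at 9.06 ± 0.88 CPM, and 6 of the 9 were nearer the podocyte markers, against 24.5% of all genes.

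**Figure D4:**
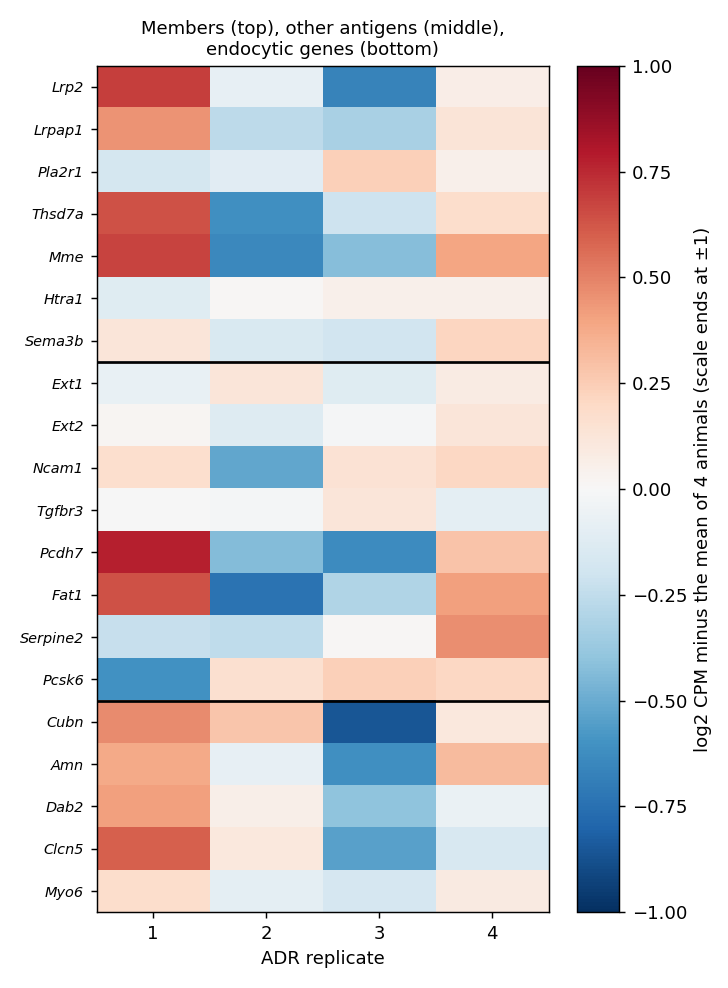
Log2 CPM minus the mean of 4 animals (colour, ending at ±1) for the 7 members, 8 other antigen genes and the endocytic genes named in the text (rows) in ADR replicates 1 to 4 (columns). Lrp2, Cubn, Amn and Dab2 share a low value in replicate 3, and Thsd7a, Mme and Fat1 share one in replicate 2.

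Relatives of the other members were measured from short lists. Of the lectin relatives of Pla2r1, Mrc2 stood at 197 ± 52.4 CPM (SD, n = 4), Mrc1 (the macrophage mannose receptor) at 22.5 ± 2.91 CPM and Ly75 at 3.13 ± 0.42 CPM. Mrc1 was highest in replicates 2 and 3. Among thrombospondin repeat genes, Thbs1 stood at 293 ± 107 CPM, Thsd1 at 87.5 ± 15.2 CPM and Thbs2 at 77.3 ± 10.3 CPM. Of the neprilysin family, the endothelin-converting enzyme gene Ece1 stood at 444 ± 60.4 CPM and Ece2 at 7.39 ± 1.01 CPM.

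The other HtrA protease genes were less even than Htra1. Htra2, whose product acts in mitochondria, stood at 80.9 ± 8.62 CPM (SD, n = 4), with a log2 SD of 0.15. Htra3 had 79, 259, 212 and 170 reads in replicates 1 to 4 and a log2 SD of 0.64, and Htra4 had 62, 80, 146 and 126 reads with 0.53. All 3 were lowest in replicate 1, as were Htra1 and 35.0% of all genes.

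Sema3b belongs to the class 3 semaphorins, which signal through neuropilins and plexins. Of 13 listed ligands and receptors, 12 were used, 11 varied beyond counting error, against 69.5% of all genes, and limma called 0. Sema3g, a podocyte semaphorin, had 65484, 29002, 44179 and 61637 reads in replicates 1 to 4. Its SD against the podocyte mean was 0.13, with 0.05 without replicate 2 and 0.15 without replicate 3. Plxna4 stood at 9.48 ± 2.19 CPM (SD, n = 4). The log2 SD was 0.20 for Sema3b and 0.63 for Sema3g. Against the podocyte mean, the SD of Sema3b was 0.37, or 0.20 without replicate 2. Of the 12 listed genes, 9 were nearer the podocyte markers, against 24.5% of all genes.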

How the data were processed

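The deposited table holds log2 values made by the authors, 1 per gene and sample. The submitters' processing notes name HISAT2, featureCounts of Subread, limma and the build Rnor_6.0, without role or order. The filter on low genes and the use of strand in counting are not given in the sources used here; RefSeq lists overlapping pseudogenes or noncoding genes for Thsd7a, Mme, Htra1 and Sema3b, whose reads could then be mixed. Libraries were stranded and run over 2 lanes per the labels, with 1 column per sample.

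Each value is log2 CPM with 0.5 reads added, so reads were recovered by solving for the worth of a read (largest deviation 0.0012 reads). Of 13265 rows, 4 with displaced cells were left out, and 116 that share a symbol were not used by name. The number of value columns of no sample was 0.

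Spread was tested on the recovered reads against Poisson sampling (chi-square, 3 degrees of freedom) and by the F test of limma 3.58.1 (R 4.3.3) on residual variance against its abundance trend, with Benjamini-Hochberg adjustment over 13261 genes and a threshold of 0.05. With 4 samples that nothing shows to be separate animals, p-values measure the spread between these samples, which may be technical. The planned test of the members' order by level needed transcript lengths, which were not used here, and was not run.

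Members and lists were chosen with earlier results of these data known. Named were the 7 members, the partners Cubn, Amn and Dab2, the genes with the highest and lowest mean of the pathway, podocyte and tubule lists, all genes of pathway lists with up to 3 used, and the 3 genes nearest each member; Nphs1 and Kl's values were picked beyond this rule. Some results for genes under this rule are not reported here. Of 138 listed genes, 121 were used.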

Additional observations from a re-analysis of the deposited data

How the results depend on the processing

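Other scalings between samples (a trimmed mean of log ratios, a median of ratios, mitochondrial genes out of the totals), log2(CPM + 1), a filter on low values, the median of the markers and leaving out each animal were tried. Scalings were centred, so they could change neither the members' mean log2 levels nor their differences from marker means, and say nothing on the stability of these. They moved a sample by at most 0.05 on the log2 scale and left the order of animals unchanged for 6 of 7 members, the exception being Htra1. The number of members nearer the podocyte markers, 4 of 7, was 2 with the median of the markers. With an animal left out it lay between 2 and 5, with 2 without replicate 3. The cause was not tested. The number varying beyond counting error, 6, lay between 5 and 7 with an animal left out, and the number at an unadjusted p under 0.05 in limma's fit between 2 and 3. Leaving out animals for the differences between genes was added after seeing the data. limma's adjusted test called 0 members in each setting, and 0 of all genes. The log2 SD of Htra1 was 0.02 without replicate 1, and that of Pla2r1 0.12 without replicate 3. No paired analysis was possible because there is a single group. With 4 animals, the number of samples limits each SD, and depth limits Pla2r1 most, at 128 to 193 reads.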
